A study of Gadus morhua with 47 samples.

Results

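Among 47 liver slices of Atlantic cod (Gadus morhua), 4 slices had a TMM factor under 0.8 and were chosen on that value. The TMM factor is a scaling factor that edgeR computes for each RNA-seq library so that most transcripts keep the same level across libraries. The 4 slices are the DMSO slice of fish 2 (factor 0.678), the BaP 10 nM slice of fish 6 (0.587), the BaP 1 µM slice of fish 7 (0.758) and the Mix 1 µM slice of fish 8 (0.572). The 2 slices just above the limit are the EE2 10 nM slices of fish 3 and fish 6, at 0.832 and 0.837, and the highest factor of the other 43 slices is 1.28. Each of the 4 slices was compared with the other slices cut from the same liver, 19 in all: 5 of fish 2, 6 of fish 6, 3 of fish 7 and 5 of fish 8. The remaining 24 slices come from 4 other fish.

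Precision-cut liver slices are thin sections of living liver that are kept in culture and exposed there. Slices of 8 fish, 5 males and 3 females, were given dimethyl sulfoxide (DMSO, the solvent, n = 8), benzo[a]pyrene (BaP) at 10 nM (n = 7) or 1 µM (n = 7), ethynylestradiol (EE2) at 10 nM (n = 7) or 1 µM (n = 6), or a mixture with both agents each at 10 nM (Mix 10 nM, n = 6) or each at 1 µM (Mix 1 µM, n = 6). Each fish gave at most 1 slice per treatment, so the replicate is the fish and the other slices of a fish differ from one another in treatment. The exposure time is not given in the sources used here. Fish 2 and 7 were males with livers of 11.8% and 11.3% of body weight, and fish 6 and 8 were females with livers of 4.03% and 7.40%. In the 4 other fish the liver was 4.47% to 12.4% of body weight. The 4 slices therefore come from 4 fish, 4 treatments and both sexes.

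In messenger RNA libraries, fragments of a transcript are counted, so a long transcript gives more counts than a short one present in the same number of copies. BaP is a polycyclic aromatic hydrocarbon that activates the aryl hydrocarbon receptor, which switches on genes of xenobiotic metabolism in fish liver. EE2 is a synthetic estrogen, and in fish liver the estrogen receptor switches on egg yolk and egg shell protein genes. The transcript identifiers of the files matched no gene in the name table, so the liver label could not be checked against marker genes and no gene names are given.

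The 4 libraries were not shallow as a group. They held 58.4, 44.8, 62.1 and 39.9 M (mega) counted segments in the order DMSO fish 2, BaP 10 nM fish 6, BaP 1 µM fish 7 and Mix 1 µM fish 8, against 36.6 to 67 M in the 43 other slices. Only the Mix 1 µM slice of fish 8 lay below its own fish, whose other slices held 51.9 to 63.5 M. Fewer transcripts were detected in each of the 4 than in any other slice of its fish. The numbers were 17801 against 18842 to 19200 in fish 2, 17253 against 18344 to 19046 in fish 6, 17546 against 18309 to 18776 in fish 7, and 15975 against 18375 to 18703 in fish 8.

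Counts were also gathered on fewer transcripts. The fewest transcripts that together held the majority of the counts numbered 89 in the DMSO slice of fish 2 and 148 to 226 in its other slices. They numbered 78 against 109 to 149 in fish 6, 133 against 189 to 224 in fish 7, and 91 against 204 to 253 in fish 8. In all 4 fish the slice lay below the whole range of its neighbours. The share of the 10 most abundant transcripts stood inside that range in fish 2 and 8, and above it in fish 6 (19.2% against 17.4% to 18.6%) and fish 7 (17.5% against 16.4% to 16.6%).

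The shift of a transcript is its log2 CPM (counts relative to the TMM-scaled total of the library, with a prior count of 2) in a slice minus the median over the other slices of the fish, leaving out the 4. It was computed for 17824 transcripts. Because the TMM factor uses the counts of all transcripts, the shifts are a description of the chosen slices and carry no test. At least 2-fold higher were 2182 transcripts (12.2%) in the DMSO slice of fish 2, 1878 (10.5%) in the BaP 10 nM slice of fish 6, 4027 (22.6%) in the BaP 1 µM slice of fish 7 and 3841 (21.5%) in the Mix 1 µM slice of fish 8. At least 2-fold lower were 4070 (22.8%), 3862 (21.7%), 4960 (27.8%) and 5797 (32.5%) in the same order. Each of the 43 other slices, read in the same way, had 276 to 790 transcripts 2-fold higher and 293 to 1586 lower. The median absolute shift was 0.74, 0.69, 1.01 and 1.10 on the log2 scale in the 4 slices and 0.14 to 0.37 in the others.

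The shifts were alike in the 4 slices, each read against reference slices of its own fish. All 4 were chosen for a low TMM factor, which depends on these counts, so some likeness can follow from the choice. Over the 6 pairs of slices, Pearson's r across the 17824 transcripts was 0.51 to 0.67 and Spearman's rho 0.57 to 0.72, as descriptions across transcripts, which share length and level and are not independent. A pair of slices had the same sign for 71.0% to 80.1% of transcripts. All 4 slices were above their reference for 4726 transcripts (26.5%) and below it for 5389 (30.2%).

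At least 2-fold higher in all 4 slices were 772 transcripts (4.33% of all), and at least 2-fold lower were 1500 (8.42%). A further 143 (0.802%) were at least 2-fold away in all 4, but not in the same direction. For these, the slice that alone went the other way was most often the Mix 1 µM slice of fish 8 (39) and least often the DMSO slice of fish 2 (11). Of the 772 higher transcripts, 763 stood above every other slice of the fish in all 4 fish, where 3411 of all transcripts (19.1%) did so. Of the 1500 lower transcripts, 1396 stood below every other slice in all 4 fish, where 3636 of all (20.4%) did so. These numbers restate the choice of the lists and are a description. The remaining members of each list lay inside the range of the other slices in some fish.

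Most transcripts that passed in 3 of the slices also passed in the fourth. The slice left out was itself chosen by its TMM factor, so the shares below are a description. The shares of all transcripts beside them were not matched for length or level. Transcripts that were 2-fold higher in 3 of the slices were also 2-fold higher in the slice left out for 80.8% (fish 2), 64.9% (fish 6), 80.7% (fish 7) and 92.2% (fish 8) of them, where 10.5% to 22.6% of all transcripts were. For transcripts lower in 3 slices the shares were 79.5%, 70.1%, 73.8% and 89.8%, where 21.7% to 32.5% of all were. Without the BaP 10 nM slice of fish 6 the higher list would hold 1190 transcripts, and without each other slice 837 to 957.

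The changes were uneven in size between the directions. The higher transcripts rested close together, with median shifts of 1.38 in fish 2, 1.24 in fish 6, 1.56 in fish 7 and 1.99 in fish 8, and none was 4-fold higher in all 4. The lower transcripts had medians of -1.82, -1.73, -2.79 and -2.62, and 246 were 4-fold lower in all 4. The interquartile widths were 0.30 to 0.59 for the higher list and 0.95 to 1.80 for the lower. With slices at 0 counts set to 3 counts per library, the medians of the lower list were -1.79, -1.64, -2.71 and -2.41. Of the lower list, 363 transcripts had 0 counts in at least 1 of the 4 slices and 43 had 0 in all 4.

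Together the higher transcripts took 34.8%, 37.8%, 37.8% and 40.6% of the unscaled counts on the 17824 transcripts in the 4 slices, against 17% to 27% in the 43 others. The lower transcripts took 0.717%, 0.660%, 0.377% and 0.382%, against 2% to 4.56%. These shares follow the choice of the lists and are a description. Among the 43 slices the median standard deviation within a fish was 0.22 on the log2 scale for the higher list, 0.37 for the lower list and 0.29 for all transcripts, so the lower list varied more than transcripts in general and the higher list less.

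Higher and lower are relative to the middle of all transcripts. With library totals alone, without TMM factors, the median shift of all transcripts was -1.20 to -0.57 in the 4 slices. On that scale 4 transcripts were 2-fold higher in all 4 slices and 3928 were lower. In bulk tissue, fewer cells of one type and less RNA of a transcript per cell cannot be told apart.

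Coding length separated the lists. The higher transcripts had a median coding length of 507 bases (interquartile range 360 to 747), and the longest was 2199 bases. The lower transcripts had a median of 2151 bases (interquartile range 1250 to 3275), and all 17824 transcripts had 1137. Of the higher list, 62.3% lay in the shortest quintile, a class of 1 in 5 transcripts (69 to 603 bases). Of the lower list, 51.9% lay in the longest quintile (2073 to 77343 bases). There were exceptions to the pattern: 103 of the lower transcripts were in the shortest quintile, 13 of them 4-fold lower in all 4 slices, and 1 of the higher was in the longest quintile.

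Shifts fell with length across all transcripts, not only across the lists. From the shortest to the longest quintile the mean over the 4 slices of the median shift was 0.54, 0.28, 0.05, -0.28 and -1.02. The length gradient, which is the median shift of the longest quintile minus that of the shortest, was -1.17 in the DMSO slice of fish 2, -1.02 in the BaP 10 nM slice of fish 6, -2.30 in the BaP 1 µM slice of fish 7 and -1.76 in the Mix 1 µM slice of fish 8. In the 43 other slices it was -0.75 to 0.41, so the groups did not meet. Library totals without TMM factors gave nearly the same mean gradient, -1.56, since a scaling factor moves long and short transcripts alike. The mean coding length of a counted segment's transcript was 1169, 1141, 1030 and 1095 bases in the 4 slices. In the other slices of fish 2 it was 1487 to 1561 bases, in fish 6 1344 to 1505, in fish 7 1318 to 1549, and in fish 8 1530 to 1654.

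**Figure D1:**
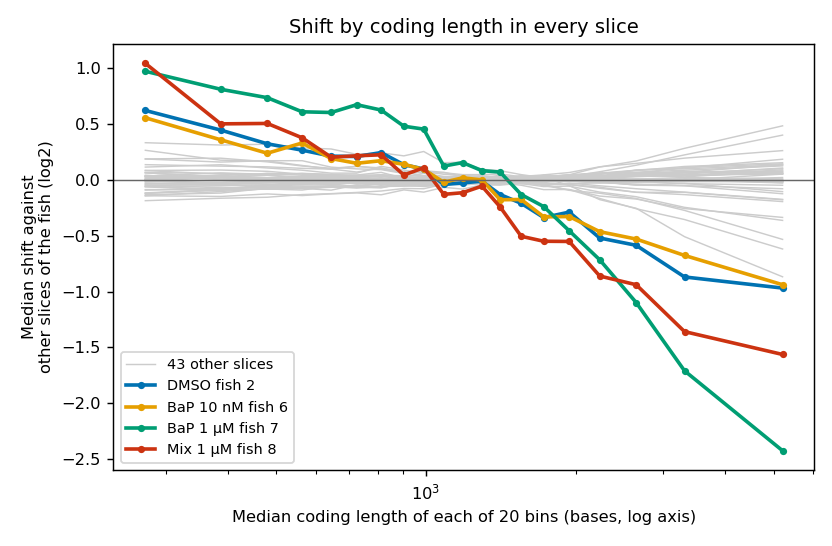
Median shift (log2, vertical axis) in 20 bins of coding length (bases, log axis) for each of the 47 slices, with coloured lines for the 4 slices and grey lines for the 43 others. The 4 coloured lines lie above 0 for the shortest transcripts and below it for the longest, with the BaP 1 µM slice of fish 7 falling furthest.

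The profile of shift by length differed in shape between the 4 slices. In the DMSO slice of fish 2 and the BaP 10 nM slice of fish 6 it ran nearly together, with medians of 0.42 and 0.37 in the shortest quintile and -0.75 and -0.65 in the longest. The BaP 1 µM slice of fish 7 went from 0.78 to -1.52 and was still above 0 in the middle quintile, at 0.20, where the other 3 were between -0.02 and 0.01. The Mix 1 µM slice of fish 8 went from 0.60 to -1.17. Across all transcripts, Spearman's rho of shift with length was -0.35, -0.33, -0.48 and -0.35. The other slices ran from -0.41 to 0.34, so by this measure 3 of the 4 slices were inside their range.

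**Figure D2:**
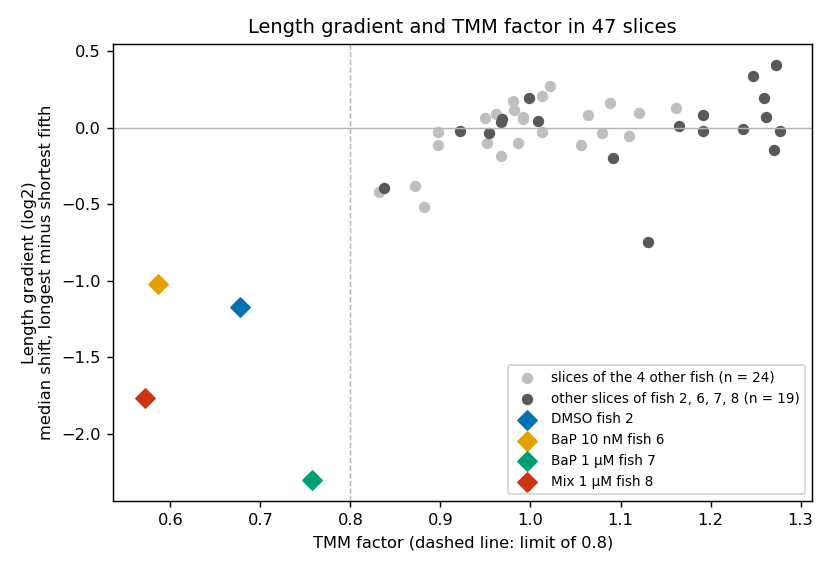
Length gradient (log2, vertical axis) against TMM factor (horizontal axis) for 47 slices: coloured diamonds are the 4 slices, dark points the 19 other slices of their fish and pale points the 24 slices of other fish. The 4 slices lie left of the limit of 0.8 and at -1.02 or below, and 1 slice of fish 7 with a factor of 1.13 lies at -0.75.

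Base level went the other way. The base level is the median level of a transcript in the other slices of a fish, averaged over the 4 fish on the log2 scale and divided by its coding length. The higher list had a median base level of 44 CPM per kilobase, the lower list 3.95, and all transcripts 5.78. The level gradient, the median shift of the highest quintile by this level minus that of the lowest, was 0.88 in fish 2, 0.90 in fish 6, 0.91 in fish 7 and 1.47 in fish 8. In the 43 other slices it was -0.32 to 0.42. Because the level is divided by length it carries part of the length trend: the mean over the 4 slices was 1.04, and 0.52 with the level not divided by length. It was also 0.52 without the expression filter. Not divided by length, the median base level was 22.5 CPM for the higher list, 7.75 CPM for the lower list and 6.77 CPM for all transcripts. The lower list was thus below all transcripts only by the divided level. The 4 slices were outside the range of the others by the divided level, and fish 8 stood above the rest of the 4. Of the 100 transcripts with the highest base level per kilobase, 99, 100, 92 and 100 were above their reference in the 4 slices, with median shifts of 1.51, 1.38, 1.37 and 2.22. The median shift of all transcripts in these slices was -0.08, -0.10, 0.01 and -0.18. The higher list held 67 of the 100 transcripts and the lower list 0. These 100 had a median coding length of 529.5 bases, against 1137 for all transcripts, so level and length are not separated in them.

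Length and level were related to each other, so the shift was read in a grid of both. Short and abundant transcripts (shortest quintile, highest level quintile, 1074 transcripts) had a mean of the 4 medians of 1.08, and 30.9% of them were in the higher list. Abundant transcripts in the longest quintile (317) stood at -0.38, and 0 of them were in the higher list. Within the longest quintile every level class was below 0, with the lowest value, -1.29, in the second class from the bottom. Short transcripts of the lowest level class stood at -0.05. The shift thus fell with length within every level class, and rose with level within the shortest class from -0.05 to 1.08. The lowest level class ended at 0.71 CPM per kilobase, so its short transcripts had few counts. There the prior count of 2 draws shifts toward 0. With a prior count of 0.5 the mean level gradient was 1.20 instead of 1.04.

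**Figure D3:**
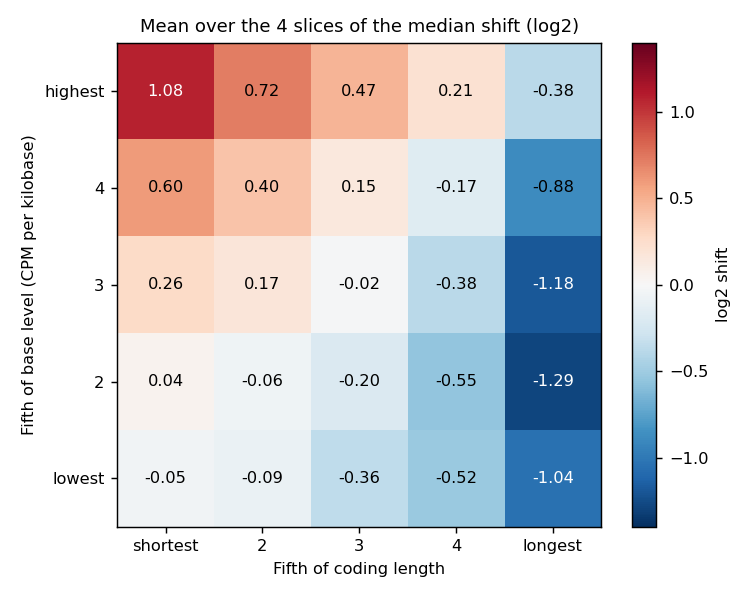
Mean over the 4 slices of the median shift (log2, colour and printed value) for each combination of coding length class (horizontal axis, shortest to longest) and base level class (vertical axis, CPM per kilobase). Values run from 1.08 for short, abundant transcripts to -1.29 for long transcripts of the second lowest level class.

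Some transcripts were lost. A transcript was counted as lost where a slice had 0 counts and every other slice of the fish had at least 10. There were 99 such transcripts in the DMSO slice of fish 2 (0 to 7 in the other slices of the fish), 90 in the BaP 10 nM slice of fish 6 (0 to 5), 160 in the BaP 1 µM slice of fish 7 (2 to 21) and 693 in the Mix 1 µM slice of fish 8 (0 to 5). Fish 8 had by far the most, in the library with the fewest counts of the 4. The median coding length of the lost transcripts was 1506, 1361, 1749 and 1305 bases. This was longer than the 1137 bases of the 17824 transcripts but shorter than the lower list. The sets are not alike, since lost transcripts were sought among all 22100 and needed at least 10 counts in every other slice. Transcripts gained by the mirrored rule numbered 0, 3, 5 and 2. A limit of 3 counts corresponded to 0.0758, 0.114, 0.0638 and 0.131 CPM in the 4 slices. It covers at most counting error, and takes segments as independent although both mates of a pair were counted.

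Of the transcripts higher in all 4 slices, ENSGMOT00000009959.1, with 222 coding bases, had the largest smallest shift. It stood at 124 CPM in the DMSO slice of fish 2, while the other slices of the fish had 24.3, 33.5, 36.1, 38.1 and 44.5 CPM. It stood at 197 CPM in the BaP 10 nM slice of fish 6 (other slices lowest 49.7, median 59.1, highest 93.5) and at 119 CPM in the BaP 1 µM slice of fish 7 (26.3, 28.8 and 40.9 in the others). In the Mix 1 µM slice of fish 8 it was at 156 CPM against 20.2, 21.8, 23.7, 25.1 and 26.6. Each slice was above all others of its fish, with shifts of 1.78, 1.74, 2.05 and 2.72. ENSGMOT00000021331.1, with 825 coding bases, was next. Its 81.3 CPM in fish 2 stood against 22.7, 24.4, 25.5, 27.9 and 37.2, and its 68.3 CPM in fish 6 against 12.5 to 28.8 with a median of 21.6. In fish 7 it had 38 CPM against 8.71, 11.3 and 12.3, and in fish 8 43.8 CPM against 7.85, 8.00, 8.18, 8.28 and 11.3. The groups did not overlap in any fish, and the shifts were 1.67, 1.68, 1.74 and 2.42.

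Of the transcripts lower in all 4 slices, ENSGMOT00000002462.1, with 1962 coding bases, led by the same measure and had 0 counts in all 4. The other slices of fish 2 had 0.864, 0.885, 0.914, 1.21 and 1.79 CPM, and those of fish 6 had 0.215 to 1.34 CPM with a median of 0.837. Those of fish 7 had 0.339, 1.19 and 1.35 CPM, and those of fish 8 had 0.504, 0.650, 0.946, 0.950 and 1.00. Set at 3 counts per library, the transcript was 12.1-fold lower in fish 2 and 7.33-fold lower in fish 6. On the same setting it was 18.6-fold lower in fish 7 and 7.20-fold lower in fish 8. These are no firm lower limits, because both mates of a pair were counted and segments are not independent. It was low in some slices with a TMM factor above the limit too, with 2 counts (0.0491 CPM) in the EE2 10 nM slice of fish 4 and 8 counts in the EE2 10 nM slice of fish 6.

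ENSGMOT00000003192.1, with 11181 coding bases, was the next of the lower transcripts. It had 29 counts (0.733 CPM) in the DMSO slice of fish 2, 1 count (0.0381 CPM) in the BaP 10 nM slice of fish 6, 4 counts (0.0851 CPM) in the BaP 1 µM slice of fish 7 and 4 counts (0.175 CPM) in the Mix 1 µM slice of fish 8. The other slices had 7.48, 9.04, 11.6, 12.2 and 12.7 CPM in fish 2, 2.98 to 6.62 CPM with a median of 4.70 in fish 6, 2.1, 8.01 and 8.99 CPM in fish 7, and 8.48, 8.94, 10.2, 11 and 11.6 CPM in fish 8. The reference was 15.9-fold the level of the slice in fish 2 (exact 95% Poisson interval of the slice's count 11.1 to 23.7), 123-fold in fish 6 (22.1 to 4871), 94.2-fold in fish 7 (36.8 to 346) and 58.5-fold in fish 8 (22.8 to 215). The intervals are wide where 1 to 4 counts remained, and they leave out the spread between slices. They also take segments as independent, although both mates of a pair were counted, so they can be too narrow. The 4 named transcripts were chosen among those that did not pass the treatment test, and had smallest Benjamini-Hochberg adjusted p over the 6 treatments of 0.291, 0.649, 0.133 and 0.126 (edgeR quasi-likelihood test) in the order named.

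**Figure D4:**
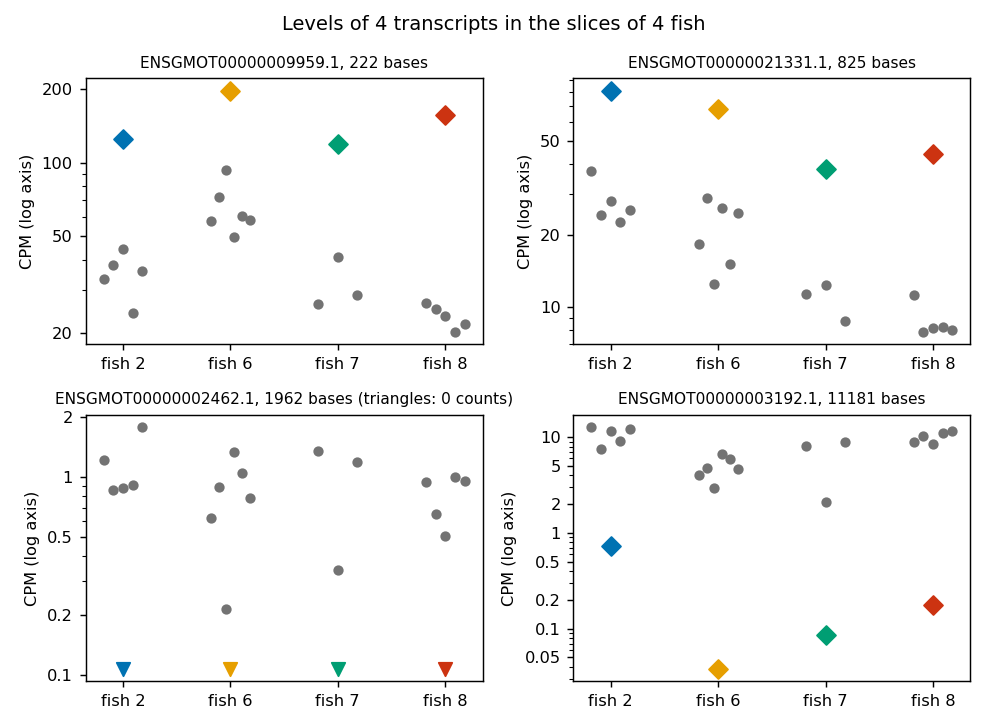
Level (CPM, log axis) of the 4 named transcripts in the slices of fish 2, 6, 7 and 8: coloured diamonds are the 4 slices, coloured triangles are slices with 0 counts drawn at an arbitrary low position, and grey points are the other slices of each fish. In the upper panels every diamond is above the grey points of its fish, and in the lower panels every diamond or triangle is below them.

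Shares of segments outside the transcripts were measured independently of the TMM factor. Segments placed on no transcript made up 49.6% of all segments in the DMSO slice of fish 2 (other slices 46.9% to 57.8%, median 47.5%) and 46.5% in the BaP 10 nM slice of fish 6 (43.3% to 45.3%). They made up 44.7% in the BaP 1 µM slice of fish 7 (42.7% to 45.1%) and 50.8% in the Mix 1 µM slice of fish 8 (41.8% to 43.4%). The slice stood above the range of its fish in fish 6 and 8 and inside it in fish 2 and 7. The mean difference from the median of the other slices was 3.14 percentage points ± 3.73 (SD, n = 4 fish), and the slice was the higher one in 4 of 4 fish. Flipping the signs of the 4 differences in every way gave a two-sided exact p of 0.13, and no arrangement of 4 fish can give a lower one. Without fish 8 the mean was 1.32 points. The share of unmapped segments whose mate was mapped differed by -0.11 points ± 0.88 (SD, n = 4 fish), with 2 of 4 fish above 0 and an exact p of 0.875.

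The treatments were tested without the 4 slices, in 43 libraries with treatment and fish as terms. With any of the 6 treatments, 495 of 17930 transcripts (2.76%) passed an adjusted p of 0.05 (edgeR quasi-likelihood test, Benjamini-Hochberg adjustment within each treatment). Of the 772 higher transcripts 4 were among them (0.518%), and of the 1500 lower 125 were (8.33%), where 365 of 15544 transcripts in neither list were (2.35%). Apart from the treatment-responsive transcripts, 768 were thus higher and 1375 lower in all 4 slices. The number of responsive transcripts was 1392 without fish 1, 1336 without fish 2, 291 without fish 3, 155 without fish 4, 192 without fish 5, 173 without fish 6, 185 without fish 7 and 486 without fish 8. It was 1085 with DESeq2 and 23 without the fish as a block, so which transcripts count as responsive depends on these choices.

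Nearly all of the overlap was with 1 treatment. With EE2 10 nM 290 transcripts (1.62%) fell and 145 rose, and 121 of the falls were in the lower list, which is 41.7% of the falls and 8.07% of the list. The lower list was 8.42% of all transcripts. Of the falls, 263 (90.7%) were below their reference in all 4 slices, where 30.2% of all transcripts were, and their median coding length was 3249 bases. The shares of all transcripts were not matched for length. In the longest quintile (2073 to 77343 bases), 21.8% of transcripts were in the lower list. These comparisons share slices: the EE2 10 nM and DMSO slices of fish 2, 6, 7 and 8, where left in, are also references for the 4. With all 47 libraries in the fit, 1 transcript fell with EE2 10 nM and 50 rose.

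Some slices above the limit had shifts like those of the 4, and others the opposite. The shift of the EE2 10 nM slice of fish 7 correlated with the mean shift of the 4 at a Pearson's r of 0.57 across transcripts, with a length gradient of -0.75 and a TMM factor of 1.13. The EE2 10 nM slice of fish 6 followed with 0.43, the BaP 1 µM slice of fish 4 with 0.40, and the EE2 10 nM slices of fish 3 and 4 with 0.38 and 0.31. At the other end were the Mix 10 nM and DMSO slices of fish 7, at -0.39 and -0.35. Slices of a fish serve as references for each other, and those of fish 6 and 7 also for the 4. By treatment, the median length gradient over slices was -0.38 with EE2 10 nM (n = 7, -0.75 to 0.08), -0.15 with BaP 1 µM (n = 6, -0.51 to -0.02) and -0.02 with DMSO (n = 7, -0.11 to 0.41). It was 0.04 with BaP 10 nM, 0.14 with EE2 1 µM, 0.07 with Mix 10 nM and 0.08 with Mix 1 µM. The ranges of the treatments overlapped, and their part in the falls with EE2 10 nM was not tested.

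Keeping the 4 slices in the treatment fit moved the fold changes along length. The median log2 fold change of the longest quintile minus that of the shortest was -0.27 with EE2 10 nM in 43 libraries and -0.08 in 47. With BaP 1 µM it was -0.20 and -0.33, with Mix 10 nM 0.05 and 0.24, with Mix 1 µM 0.01 and -0.16, and with EE2 1 µM 0.08 and 0.15. With BaP 10 nM it was 0.04 and -0.02. The 3 treatments that hold 1 of the 4 slices moved down and the 3 others moved up, and the DMSO group, to which all are compared, holds 1 of the 4.

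The treatment responses of the 4 slices were read over transcripts called in the other libraries. With BaP 1 µM 17 transcripts (0.0948%) rose in the 43 libraries. Their median difference from the slices of the fish without that agent and dose was 1.47 on the log2 scale in the BaP 1 µM slice of fish 7, with 11 of 17 above 0, and 0.35 in the Mix 1 µM slice of fish 8, with 13 of 17 above 0; with library totals alone the medians were 0.76 and -0.75, so the direction in fish 8 rests on the scaling. The other BaP 1 µM and Mix 1 µM slices stood at 0.45 to 1.65, with 15 to 17 of the 17 above 0, so the median of fish 7 was inside their range, that of fish 8 was below it, and both slices had fewer members above 0 than any of them. The DMSO slice of fish 2 was at -0.60 and the BaP 10 nM slice of fish 6 at -0.19, within the -0.61 to 0.90 of slices without BaP at 1 µM. The 0.35 of fish 8 lay in that range too, and those slices had 4 to 14 members above 0. The 17 transcripts were called in a fit that held the other BaP 1 µM slices and left out the 4. That choice favours the BaP 1 µM slices in the fit. Mix 1 µM slices had a term of their own in it and were favoured less directly. No conclusion is drawn from the lower values of the slices left out, each read in 1 slice with no test. Against the same reference slices, the median shift of all transcripts was 0.01 in fish 7 and -0.18 in fish 8. The share of all transcripts above 0 is not given, so the numbers above 0 are not set apart from the shift of the whole slice. With EE2 1 µM 83 transcripts (0.463%) rose, 82 of them among the 17824. Their median difference from the slices of the fish without EE2 was 1.24 in the Mix 1 µM slice of fish 8, with 57 of 82 above 0. This was inside the 0.45 to 2.1 of the other slices with EE2, although those had 62 to 82 members above 0. With library totals alone the median in fish 8 was 0.16, below that range, which was itself read with TMM factors. The median difference was 0 in each of the 3 slices without EE2, with 39, 37 and 37 of 82 above 0 in fish 2, 6 and 7. Their references were only 2, 2 and 1 slices. A median of exactly 0 can arise from transcripts with 0 counts in both slice and reference, so it is no measured equality. The 82 transcripts were called on EE2 1 µM against DMSO without the 4 slices, so the counts above 0 of EE2 1 µM slices are not compared on equal terms. The 5 other Mix 1 µM slices had a term of their own in that fit and had 74 to 81 members above 0. The difference from the 57 of fish 8 is read in 1 slice with no test, and the share of all transcripts above 0 is not given here either.

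**Figure D5:**
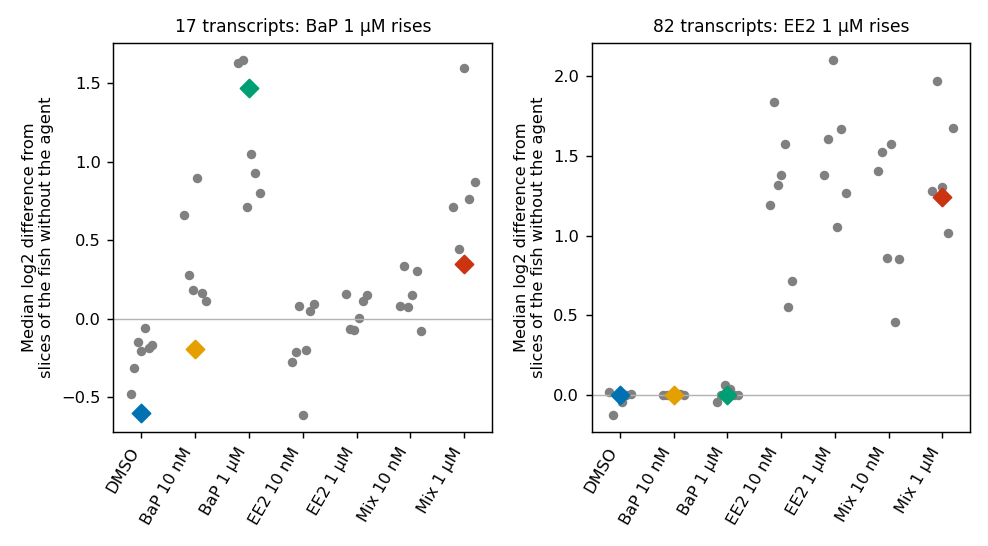
Median log2 difference from reference slices of the same fish (vertical axis) by treatment group. It is taken over 17 transcripts that rose with BaP 1 µM and 82 that rose with EE2 1 µM. References are slices without BaP at 1 µM (those with BaP at 10 nM included) for the 17, and slices without EE2 for the 82. Grey points are the 43 other slices, except that for EE2 the DMSO slice of fish 7 has no reference and is not drawn. Diamonds are the DMSO slice of fish 2 (blue), BaP 10 nM of fish 6 (orange), BaP 1 µM of fish 7 (green) and Mix 1 µM of fish 8 (red). The last is at 0.35 for BaP (-0.75 without TMM factors) and 1.24 for EE2 (0.16 without TMM factors).

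Single responders differed between the agents. The transcript with the smallest adjusted p with BaP 1 µM, of 2055 coding bases and chosen after its values were seen, had a log2 fold change of 4.09 ± 0.20 (SE) in the 43 libraries (edgeR adjusted p 3.6e-17). It stood at 5.63 CPM in the BaP 1 µM slice of fish 7, where the DMSO, EE2 10 nM and Mix 10 nM slices of the fish had 0.864, 0.865 and 1.43 CPM. The 6 other BaP 1 µM slices had 19.9 to 48.9 CPM with a median of 33.2. In the Mix 1 µM slice of fish 8 it stood at 2.76 CPM, between the 1.23 CPM of the DMSO slice and the 2.90 CPM of the BaP 10 nM slice of the fish, while the 5 other Mix 1 µM slices had 15.6 to 45.3 CPM. Both slices thus lay below every other slice of their treatment. The transcript was picked on BaP 1 µM against DMSO in a fit that left these slices out, which tilts the comparison against the slice of fish 7. Mix 1 µM slices had a term of their own in that fit, so the tilt is less direct for fish 8. Its length is near the upper end of its quintile (1350 to 2073 bases). That quintile had a median shift of -0.17 in the slice of fish 7 and -0.46 in that of fish 8. In the finer length bins around it, with medians of 1941 and 2235 bases, the median shifts were -0.46 and -0.71 in fish 7. In fish 8 they were -0.55 and -0.86. The part of length in these low levels was not tested.

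The transcript with the smallest adjusted p with EE2 1 µM, of 1188 coding bases and likewise chosen after its values were seen, had a log2 fold change of 4.87 ± 0.34 (SE; edgeR adjusted p 2.35e-12). It stood at 30.4 CPM in the Mix 1 µM slice of fish 8, and the 5 other Mix 1 µM slices had 8.93 to 31.4 CPM. The DMSO and BaP 10 nM slices of that fish had 0.315 and 0.115 CPM. In the 3 of the 4 slices that had received no EE2 it was between 0.457 and 0.783 CPM, inside the 0.293 to 0.939 CPM of the other DMSO slices. The EE2 responder of the Mix 1 µM slice of fish 8 was therefore within its group while the BaP responder was not, each read in 1 slice with no test.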

How the data were processed

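The deposited tables hold counts of mapped read segments for 22100 transcripts, with both mates of a pair counted, so 1 fragment can add 2, and near-identical transcripts may share reads. The submitters' processing notes list SAMtools 1.4.1, HISAT2 2.1.0 and FastQC 0.11.5 without their roles. The build is not given in the sources used here. Per the labels' protocols, libraries came from a stranded mRNA kit, and no molecular identifiers are mentioned. Intervals and limits therefore cover at most counting error. They take segments as independent, so they can be too narrow where both mates of a fragment were counted. Lengths are multiples of 3 for 99.99% of transcripts and are called coding lengths. The row without a transcript name held 0 mapped counts; its unplaced segments were 41.8% to 57.8% of all segments and entered no library size. Of 33114 genes in the name table, 0 matched.

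Counts were scaled with TMM factors in edgeR 4.0.16 (R 4.3.3) over 17824 transcripts kept by its filter (minimum count 10, minimum total 15). Levels used a prior count of 2. Treatments were tested with the quasi-likelihood test in 43 libraries, with Benjamini-Hochberg adjustment in each of 6 contrasts, over 17930 transcripts; DESeq2 1.42.0 was an alternative. The steps were run on simulated data with independent counts, no fish effect and no length trend. That run therefore does not cover the pattern seen in the 4 slices. Fish was the pair because slices with one replicate number share sex and the weights of body and liver in the labels. Slices of a fish deviated together from the group means (mean correlation 0.63, different fish -0.09), the lowest pair within a fish at -0.04, or 0.41 without the 4 slices. No 2 libraries were identical (0 pairs).

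Named transcripts were at most 2 higher and 2 lower in all 4 slices, not treatment-responsive, with a mean log2 CPM of at least 0 and ranked by the smallest absolute shift. The members and lists were chosen with earlier results of these data known. Alternatives covered scaling, filter, prior count, reference, pairing, thresholds and slices left out.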

Additional observations from a re-analysis of the deposited data

Results flagged for a closer look

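Within each treatment group of 6 to 8 slices, the highest and lowest slices were set against their group by Dixon's criterion for a value far from the others, in 56 comparisons, and chance gives about 1 in 20 of them. The 4 slices were chosen by their TMM factor, so these values describe the choice. The mean coding length of counted transcripts was far from the other slices of the treatment in all 4, at 1169 bases (DMSO fish 2), 1141 (BaP 10 nM fish 6), 1030 (BaP 1 µM fish 7) and 1095 (Mix 1 µM fish 8). The length gradient was far from the group in the same 4 slices, at -1.17, -1.02, -2.30 and -1.76. The TMM factor itself stood apart in the BaP 10 nM slice of fish 6 (0.587) and the Mix 1 µM slice of fish 8 (0.572), and so did the number of detected transcripts, 17253 and 15975. No other slice stood apart in these 4 measures, nor any slice in mapped counts, the shares of unplaced segments and unmapped mates, or the share of the 10 most abundant transcripts.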

How the results depend on the processing

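Of the values under other settings, 63 kept their direction and stayed within 1 SD of the spread between slices or, for counts, within 1.5 times; 27 moved further and 2 reversed. Within those wide limits, the difference in unplaced segments was 1.32 without fish 8, that in unmapped mates was -0.35 without the replicate block, and the BaP rises in fish 8 were 0.71 against its DMSO slice only. Library totals without TMM factors gave 4 transcripts higher and 3928 lower in all 4 slices, a level gradient of 0.70, and median responses of 0.76 and -0.75 for the BaP rises in the BaP 1 µM slice of fish 7 and the Mix 1 µM slice of fish 8 (the second one reversed) and 0.16 for the EE2 rises in the latter. With scaling as in DESeq2 the median shift of all transcripts in the 4 slices was -0.09 to 0.00, against -0.18 to 0.01 with TMM. Without the expression filter the length gradient was -0.97 and the level gradient 0.52, and with base level not divided by length the level gradient was also 0.52. Without the fish as a replicate block, 416 transcripts were higher. A limit of 1.5-fold gave 2200 higher and 2807 lower, and one of 4-fold gave 0 and 246. Chosen after seeing the data, subtracting the length trend of each slice left 427 higher and 930 lower, of which 223 and 745 were in the lists, and a base level of at least 10 CPM left 663 lower of 7508 transcripts. Leaving out each of the 4 slices gave 837 to 1190 higher, 1670 to 2141 lower, length gradients of -1.74 to -1.32, level gradients of 0.92 to 1.12, and differences in unmapped mates of -0.34 to 0.28, with the reversed 0.28 without fish 8. Treatment-responsive transcripts numbered 23 without the fish block, 95 with all 47 libraries, 1085 with DESeq2 and 155 to 1392 when each fish was left out. Where no construction shows it, the cause was not tested. Of the lower list, 363 members had 0 counts in at least 1 slice, where the shift rests on the prior count. With 0 counts set to 3 counts per library, 1361 transcripts were lower in all 4 slices. The part of depth in the lower list was not tested.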
